A study of Mus musculus with 14 samples.

Results

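Mitochondrial complex I was examined here through the mRNAs of its nuclear-encoded subunits and assembly factors in hearts of FS6KD mice, in which Ndufs6 is knocked down. Members were the rows of both deposited gene tables whose symbol begins with Ndufa, Ndufb, Ndufc, Ndufs or Ndufv and a digit, or with Ndufab or Ndufaf. Of 55 such symbols, 4 numbered copies and 1 pseudogene were dropped, and Ndufa11b did not exceed 1 CPM (counts per 1e+06 counts of a library) in any library. This left 49 genes, namely Ndufs6, which is described apart, and 48 members out of 42396 genes listed. Of the members, 36 encode structural subunits, of which Ndufab1 is the acyl carrier protein, and 8 are assembly factors named Ndufaf1 to Ndufaf8. The other 4 are Ndufa4 and Ndufa4l2, which carry the family name but are not counted as subunits, and the Ndufb4-related genes Ndufb4b and Ndufb4c. The structural subunits Ndufa7 and Ndufs3 had identical rows elsewhere in the tables that shared their reads.

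The series held 14 libraries of female mouse hearts, each from polyadenylated RNA and labelled as replicates of 4 groups. All mice carried the FS6KD background, a gene trap in Ndufs6 on a mixed C57BL/6J and 129/Ola background in which the knockdown is strongest in the heart. In the knockout experiment, 4 Atf3-/-FS6KD hearts were set against 4 Atf3+/+FS6KD hearts at 12 weeks, the deletion of Atf3 exons having been made with CRISPR-Cas9 in FS6KD zygotes, so that every tissue carried it. In the viral experiment, FS6KD neonates received MyoAAV2, an adeno-associated virus directed to muscle, with a short hairpin RNA against Atf3 (MyoAAV2-shAtf3, 3 hearts) or a control hairpin (MyoAAV2-shCtrl, 3 hearts), and hearts were taken 12 weeks after injection. No heart with normal Ndufs6 belongs to the series, so no level below is set against a healthy heart. The labels do not say that the hearts of a group came from separate litters, and p-values measure the spread between these samples. The columns deposited for the viral experiment are named the other way round from the titles, with names beginning in Atf3 for the libraries titled MyoAAV2-shCtrl. The groups are therefore called labelled shAtf3 and labelled shCtrl, and every direction in that experiment holds only if the titles are right.

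Complex I takes electrons from NADH and passes them to ubiquinone while it pumps protons across the inner mitochondrial membrane. Its N module oxidises NADH, its Q module reduces ubiquinone, and the proximal and distal parts of its membrane arm carry the proton pumps. A core of conserved subunits holds the flavin, the iron-sulfur clusters and the ubiquinone site, and the many accessory subunits around it are needed for assembly and stability. Assembly factors help build the complex and are absent from its finished form. The heart is among the tissues with the highest demand for respiration, and defects of complex I subunits are a known cause of mitochondrial cardiomyopathy. Ndufs6 is an accessory, zinc-binding subunit of the N module that is added late in assembly. The mitochondrially encoded subunits of its membrane arm were not analysed here.

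Depth ranged from 30.1 to 34.4 M counts (M, 1e+06 counts) in the labelled shAtf3 libraries and from 38.1 to 40.5 M in the labelled shCtrl libraries, so depth did not overlap between these groups and cannot be told apart from the label. In the knockout experiment, replicates 1 and 2 of each genotype held 33.9 to 42.4 M counts and replicates 3 and 4 held 113 to 135 M. The members took 1.41 to 1.55% of all counts in every library. Cardiomyocyte genes such as Myh6 and Tnnt2 were abundant in all 14 hearts, with a summed level of 9 markers between 63573 and 88551 CPM. Of 5 atrial markers, Myl7, Sln and Bmp10 were too low to be tested, with Myl7 at 0.0780 to 0.154 CPM by group, and Nppa and Myl4 summed to 256 to 788 CPM. Counts for Atf3 itself did not fall with either label. They were 25.8, 6.89, 6.91 and 6.36 CPM in the Atf3+/+FS6KD hearts and 25.6, 37.6, 22.7 and 14.3 CPM in the Atf3-/-FS6KD hearts, a gene-level value that also holds exons outside the deletion and so checks no label. They were 10.1, 13.3 and 14.1 CPM in the labelled shCtrl and 21.2, 12.1 and 16.5 CPM in the labelled shAtf3 libraries, which did not show a knockdown under the titles.

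Promoter sequences bear on these genes because Atf3 binds the cAMP response element, TGACGTCA, and because nuclear respiratory genes are known targets of NRF1, ETS factors, ERR receptors and YY1. Promoters of 300 bases, from 250 before to 50 after an annotated start, were taken from RefSeq (GRCm38.p6) for 41 of the 48 members and for Ndufs6. For 9 of the 41 the table's start lay inside the gene as annotated, and the 2 members with 2 starts were counted once, while the shares of all promoters count each start. The other 7, Ndufb9 and Ndufs1 among them, had no entry in the table used. Motifs were searched on both strands as exact letters, and a match describes the letters and not a bound site. The palindrome TGACGTCA was found in 3 of 41 members (7.32%) and in 1.79% of all 32851 promoters. Its 3 carriers were Ndufa10, Ndufa11 and Ndufb2, whose log2 fold changes in the knockout comparison were -0.16, -0.10 and -0.07 (edgeR, adjusted p = 0.389, 0.782 and 0.753). The sequences before their start sites are shown because they hold this element, in capitals. In Ndufa11 and Ndufb2 it lay 158 and 14 bases before the start, where the annotated gene begins. In Ndufa10 it lay 67 bases before the start in the table but made up the first 8 bases of the gene as annotated, so its sequence is printed only as far as the element.
Ndufa10, chr1:92473818-92473958, minus strand: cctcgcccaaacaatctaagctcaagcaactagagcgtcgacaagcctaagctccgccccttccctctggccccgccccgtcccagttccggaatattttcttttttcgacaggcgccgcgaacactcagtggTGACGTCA
Ndufa11, chr17:56717562-56717761, plus strand: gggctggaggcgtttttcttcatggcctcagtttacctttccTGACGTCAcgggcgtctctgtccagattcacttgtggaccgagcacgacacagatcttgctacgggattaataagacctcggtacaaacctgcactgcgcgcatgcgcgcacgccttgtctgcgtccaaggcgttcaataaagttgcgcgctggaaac
Ndufb2, chr6:39592365-39592564, plus strand: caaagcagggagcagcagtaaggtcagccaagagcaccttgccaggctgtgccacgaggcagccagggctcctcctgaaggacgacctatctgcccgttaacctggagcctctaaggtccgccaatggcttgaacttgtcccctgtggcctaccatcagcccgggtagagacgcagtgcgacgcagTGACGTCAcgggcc

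The core of a YY1 element, AAGATGGC, was found in 7 of 41 members (17.1%) and in 2.75% of all promoters, and also in Ndufs6. In each of the 8 it lay on the coding strand and downstream of the start, and in Ndufs6 and 6 of the 7 members its ATG was the annotated start codon, so that the letters belong to the beginning of the reading frame as well as to the promoter. The exception was Ndufaf8. The 30 bases around it are given to show the shared stretch, in capitals, in Ndufs6, in 3 N or Q module subunits, in 3 membrane arm subunits and in an assembly factor.
Ndufs6, chr13:73328433-73328462, minus strand: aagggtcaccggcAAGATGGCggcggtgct
Ndufs4, chr13:114388045-114388074, minus strand: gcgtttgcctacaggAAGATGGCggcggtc
Ndufs7, chr10:80249462-80249491, plus strand: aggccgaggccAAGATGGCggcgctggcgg
Ndufa9, chr6:126849097-126849126, minus strand: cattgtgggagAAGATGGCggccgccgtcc
Ndufa3, chr7:3617384-3617413, plus strand: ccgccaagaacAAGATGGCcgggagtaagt
Ndufc1, chr3:51408915-51408944, minus strand: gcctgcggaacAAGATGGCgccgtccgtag
Ndufb8, chr19:44555393-44555422, minus strand: tgaaccgcggagaaggtgAAGATGGCtgcc
Ndufaf8, chr11:120098933-120098962, plus strand: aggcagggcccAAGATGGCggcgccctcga

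An NRF1 element, GCGCATGCG, was found in 4 of 41 members (9.76%) and in 1.75% of all promoters. In Ndufaf5, Ndufaf4 and Ndufa11 a 10-base run matched on both strands with overlapping letters, and Ndufa8 matched once. The 30 bases around it are shown for all 4 carriers. In the knockout comparison Ndufaf5, Ndufaf4, Ndufa11 and Ndufa8 had log2 fold changes of -0.25, 0.06, -0.10 and -0.09, with adjusted p-values of 0.389 to 0.782 by edgeR, so the carriers did not share a direction.
Ndufaf5, chr2:140170652-140170681, plus strand: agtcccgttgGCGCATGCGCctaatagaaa
Ndufaf4, chr4:24897960-24897989, plus strand: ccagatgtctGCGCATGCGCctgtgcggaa
Ndufa11, chr17:56717692-56717721, plus strand: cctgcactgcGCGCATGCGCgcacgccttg
Ndufa8, chr2:36049329-36049358, minus strand: gtcgctggagaCGCATGCGCagatggtacc
The ETS core CCGGAAG occurred in 6 members (14.6%) against 8.86% of all promoters, and the ERR core AAGGTCA in Ndufb2, Ndufb4 and Ndufs5 (7.32%) against 4.72%. The CCAAT box occurred in 31.7% against 37.4% and the Sp1 box GGGCGG in 51.2% against 35.7%. Promoters of the members held more G and C, with a median of 59.3% against 52.7% over all promoters, a difference that bears on motifs rich in these bases.

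Ndufs6 (chr13:73319876-73328482, GRCm38.p6) was the least abundant gene of the set in every group. Its normalised level was 2.99, 2.80, 3.24 and 3.79 CPM in the Atf3+/+FS6KD hearts and 2.77, 2.34, 3.16 and 3.61 CPM in the Atf3-/-FS6KD hearts. It was 2.41, 3.29 and 3.13 CPM in the labelled shCtrl and 3.79, 3.30 and 2.72 CPM in the labelled shAtf3 hearts. The 4 groups overlapped throughout. Between 80 and 502 counts lay behind each value. The change was -0.11 on the log2 scale in the knockout (95% interval -0.47 to 0.26, adjusted p = 0.847) and 0.16 in the viral comparison (95% interval -0.24 to 0.55, adjusted p = 0.773), intervals that leave room for moderate differences. Divided by its exon length, Ndufs6 stood at 3.57 ± 0.478 CPM per kilobase (SD, n = 4) in Atf3+/+FS6KD, last of the 48 genes with a length. The median structural subunit was 62.6 times higher there, 61.8 times higher in Atf3-/-FS6KD, and 60.01 and 59.2 times higher in the labelled shCtrl and labelled shAtf3 hearts.

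Per kilobase of annotated exon, the structural subunits mostly stood above the assembly factors, with overlap at the edges. In Atf3+/+FS6KD the median structural subunit stood at 223 CPM per kilobase, and the 36 ranged from Ndufa7, at 23.6, to Ndufb9, at 627. Ndufa7 is a doubtful lowest value, since 74.2% of the reads given to it and its copies fell in 3 further rows, one of them identical to it. Of the Ndufs3 reads 50% likewise sat in an identical copy. Next above Ndufa7 among structural subunits was Ndufb2, at 33.7 ± 2.44. Ndufa4, now known as a subunit of complex IV, was the most abundant of all, at 666 ± 48.6 CPM per kilobase (SD, n = 4). Its paralogue Ndufa4l2, known as a gene induced by hypoxia, stood at 19.8 ± 4.00.

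The core subunits were not alike in level. Ndufv1 and Ndufv2, which hold the flavin and an iron-sulfur cluster at the NADH end, stood at 279.9 ± 21.8 and 272 ± 15.3 CPM per kilobase in Atf3+/+FS6KD. Ndufs7 and Ndufs8, the pair of iron-sulfur proteins of the Q module, stood at 213 ± 34.8 and 215 ± 24.01, a difference within their SDs. Ndufs1, the largest N module subunit, stood at 133 ± 13.99, its long annotated exons lowering the quotient. The 8 Ndufaf assembly factors had a median of 16.7 CPM per kilobase, from Ndufaf2, at 6.48 ± 0.587, to Ndufaf1, at 35.8 ± 0.705, and 6 of the 8 lay below the lowest structural subunit. Adjacent genes in this order were mostly not separated, since in 37 of 47 neighbouring pairs the means ± SD overlapped. With the longest annotated transcript as the length in place of all annotated exons, Ndufb9 became the highest member, at 918, and Ndufb2 the lowest structural subunit, at 43.4, while Ndufs6 and Ndufaf2 kept their places at the bottom. By that length Ndufs7 and Ndufs8 stood at 371 ± 60.9 and 277 ± 30.8, beyond their SDs, and Ndufs1 at 406 ± 42.5. Ndufv1 and Ndufv2 stood at 444 ± 34.6 and 344 ± 19.4, so the order of core subunits depends on the length. All 8 assembly factors then lay below the lowest structural subunit in Atf3+/+FS6KD.

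**Figure D1:**
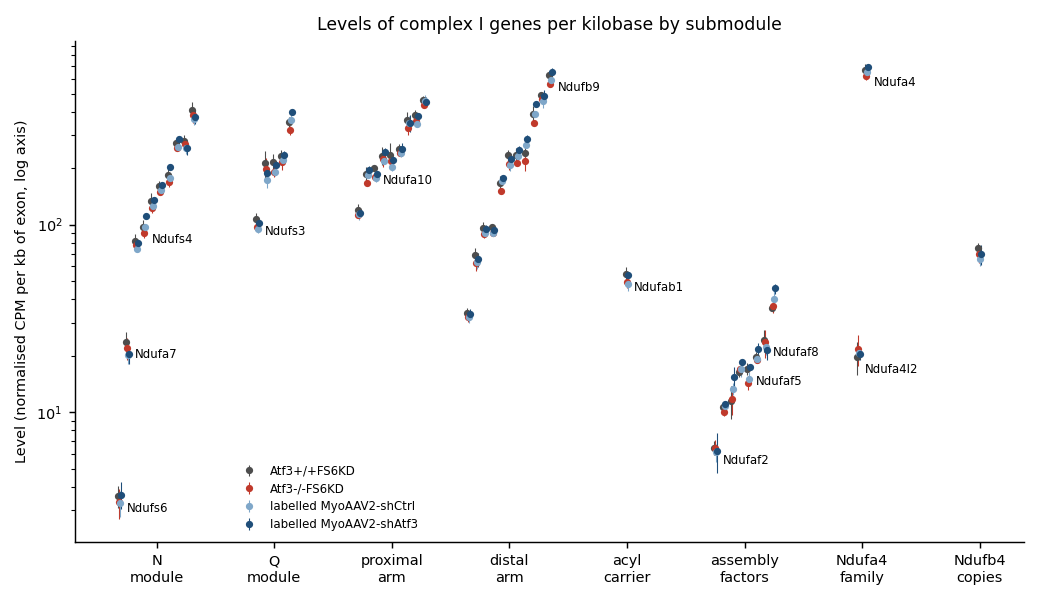
Levels of 47 genes with an annotated length, in TMM-normalised CPM per kilobase of annotated exon on a log axis, arranged by submodule. Each point is a group mean and its bar the SD over 4 hearts (knockout experiment) or 3 hearts (viral experiment). Ndufs6 lies at 3.28 to 3.64 in the 4 groups, the structural medians at 197 to 223, and the assembly factors mostly between these.

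The first comparison asked how loss of Atf3 changed complex I mRNAs in FS6KD hearts. In Atf3-/-FS6KD hearts, 42 of 48 members were lower than in Atf3+/+FS6KD and 6 were higher, but each difference was small and none passed the test. The median log2 fold change of the members was -0.10, with quartiles at -0.14 and -0.07, beside a median of 0.00 over all 15592 genes tested, of which 49.8% were lower. By edgeR's quasi-likelihood test, 0 of 48 members and 0 of 15592 genes (0%) reached an adjusted p below 0.05, and the smallest adjusted p of a member was 0.389. At an unadjusted p below 0.05, 5 members (10.4%) were lower and 0 higher, beside 4.69% of all genes lower. In 4 members (8.33%) all Atf3-/-FS6KD hearts lay below all Atf3+/+FS6KD hearts, beside 2.63% of all genes. With library sizes alone as the scaling, 37 members were lower and 11 higher, with a median of -0.04 where all genes had 0.06. With DESeq2, 208 of the same genes and 1 member, Ndufa10, were called.

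Ndufa10, an accessory subunit of the proximal membrane arm (chr1:92439486-92473825), was lower in every Atf3-/-FS6KD heart. It stood at 649.5, 672, 643 and 702 CPM in Atf3+/+FS6KD hearts and at 608, 593, 588 and 602 CPM in Atf3-/-FS6KD hearts (log2 fold change -0.16, SE 0.05, 95% interval -0.27 to -0.05, adjusted p = 0.389). The gap between the groups, from 643 to 608 CPM, was narrow, and DESeq2 gave an adjusted p of 0.0497. Ndufaf5, a methyltransferase-like assembly factor that hydroxylates Ndufs7 (chr2:140170584-140218965), stood at 29.4, 33.98, 29.3 and 29.7 CPM in Atf3+/+FS6KD hearts and at 25.5, 24.9, 28.6 and 23.6 CPM in Atf3-/-FS6KD hearts (log2 fold change -0.25, SE 0.08, 95% interval -0.43 to -0.07, adjusted p = 0.389). It had the lowest fold change of the members, 16.02% below the control, and the groups did not overlap. Its values were not whole in any of the 14 libraries, so part of its reads was divided with places that were not traced. Ndufb9, an accessory subunit of the distal arm, stood at 635, 682, 613 and 654 CPM against 571, 578, 559 and 596 CPM (log2 fold change -0.17, SE 0.05, 95% interval -0.28 to -0.05, adjusted p = 0.392). Here too the highest Atf3-/-FS6KD heart lay below the lowest Atf3+/+FS6KD heart.

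Ndufb5, also of the distal arm, was the remaining gene without overlap. Its values were 503, 502, 465 and 465 CPM against 430.4, 460.0, 450.0 and 459 CPM (log2 fold change -0.11, adjusted p = 0.544). Ndufs5, an accessory subunit of the proximal arm, stood at 157, 179, 145 and 162 CPM against 139, 146, 143 and 145 CPM (log2 fold change -0.17, SE 0.07, adjusted p = 0.459). The lowest control heart fell within the range of the knockout hearts. Ndufa5, which sits in the Q module, stood at 375, 390.3, 336 and 355 CPM against 332, 353, 317 and 314 CPM (log2 fold change -0.15, SE 0.06, adjusted p = 0.495). Within each genotype its lower values came from the deeper libraries.

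By submodule, the median log2 fold change was -0.15 in the distal arm, -0.09 in the proximal arm, -0.10 in the N module and -0.12 in the Q module. Differences between the submodules were not tested. Among the nuclear core subunits Ndufs8 had the lowest fold change, 238, 285, 275 and 313 CPM against 234, 234, 268 and 253 CPM (log2 fold change -0.17, SE 0.09, adjusted p = 0.551), and Ndufs3 stood at 233, 249, 209.7 and 245 against 215, 219.6, 205 and 210.4 CPM (log2 fold change -0.14, SE 0.06, adjusted p = 0.509). Both pairs of groups overlapped. Ndufs1, Ndufs7, Ndufv2 and Ndufv1 had log2 fold changes of -0.13, -0.10, -0.09 and -0.06, with adjusted p-values from 0.618 to 0.824.

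The assembly factors were split, with 4 of the 8 lower and 4 higher and a median log2 fold change of -0.02. Besides Ndufaf5, the lower ones were Ndufaf7 (-0.08), a methyltransferase, Ndufaf3 (-0.05) and Ndufaf8 (-0.04), which works with Ndufaf5. The higher ones were Ndufaf4 (0.06), the partner of Ndufaf3 in building the Q module, Ndufaf1 (0.05), which acts on the proximal arm, Ndufaf6 (0.01) and Ndufaf2 (0.00), a chaperone of the N module. Ndufaf4, for example, stood at 69.3, 60.6, 63.5 and 61.6 CPM against 66.7, 63.2, 68.6 and 66.4 CPM. Adjusted p-values of these 7 ran from 0.632 to 0.99. Ndufa4l2 had the highest fold change of the members, from 16.9, 21.6, 20.9 and 27.5 CPM to 20.9, 19.01, 28.2 and 27.2 CPM (log2 fold change 0.14, SE 0.17, adjusted p = 0.808), and Ndufa4 was lower, at 919.8, 1003, 838 and 918 CPM against 874, 916, 828 and 819 CPM (log2 fold change -0.10, SE 0.07, adjusted p = 0.64). The Ndufa4l2 groups overlapped, and within Atf3-/-FS6KD the deeper libraries were higher.

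**Figure D2:**
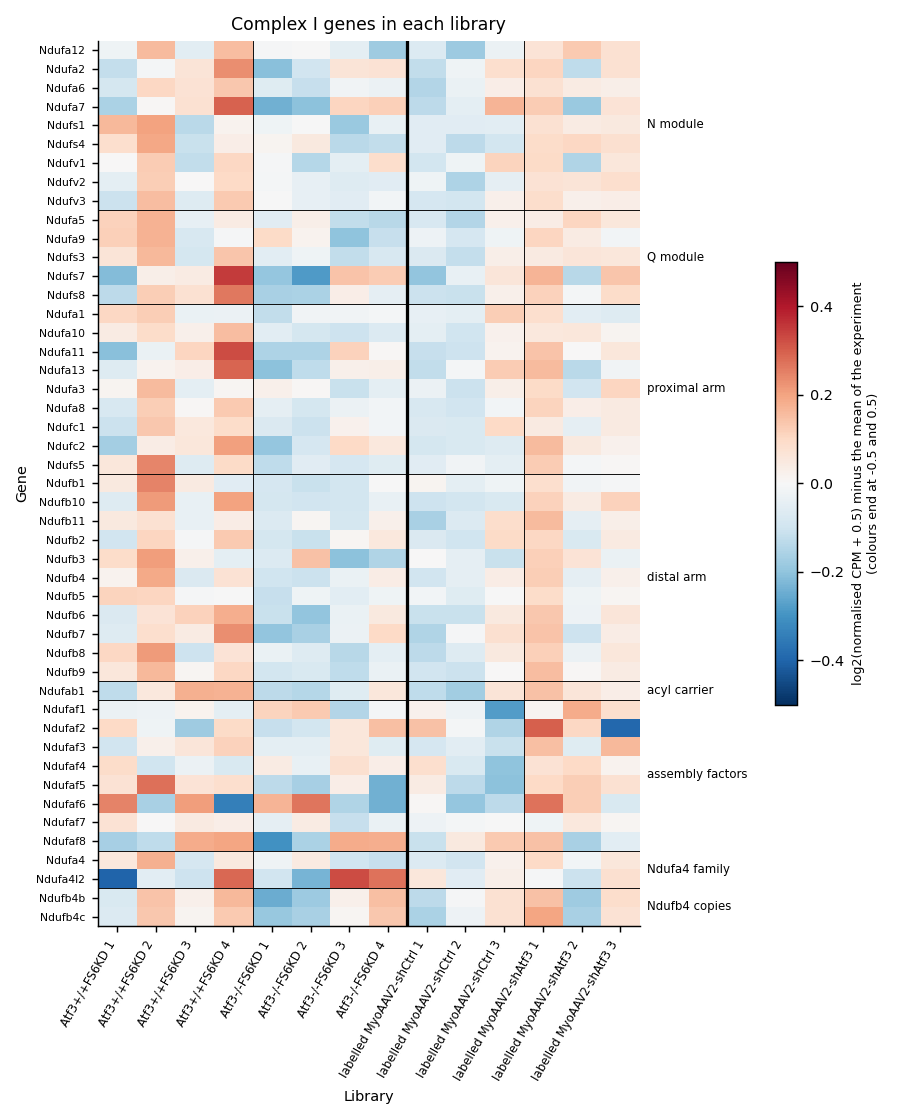
Each row is one of 47 members and each column a library, coloured by log2(normalised CPM + 0.5) minus the gene's mean over its experiment, with red above and blue below that mean. The thick line separates the experiments and the thin lines the groups and submodules. In the Atf3-/-FS6KD hearts 9, 13, 17 and 26 of 48 members lay above the gene's median over the experiment, against 23, 36, 27 and 41 in Atf3+/+FS6KD, so single libraries of the same genotype differed widely.

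Some members differed with sequencing depth in the knockout experiment. Between the deeper replicates 3 and 4 and the shallower replicates 1 and 2, the difference was larger in size than the knockout effect for 25 of 48 members. The same share over all genes was not computed, so this count is not a trait of the members. In 7 members (14.6%) all 4 deeper libraries lay above all 4 shallower ones, beside 5.87% of all genes, and in 1 member, Ndufa9 (2.08%), all lay below, beside 3.19% of all genes. The 7 were Ndufaf8, Ndufs7, Ndufa7, Ndufa11, Ndufa2, Ndufc2 and Ndufa13. Ndufs7, for example, stood at 300.2, 356, 359 and 445 CPM in Atf3+/+FS6KD hearts and at 305, 287, 385 and 381 CPM in Atf3-/-FS6KD hearts, so that replicates 3 and 4 were high in both genotypes. Both depths were split evenly over the genotypes, and the median of the members was -0.11 within replicates 1 and 2, -0.09 within replicates 3 and 4, and -0.10 with depth as a term of the model. With that term 10 members reached an unadjusted p below 0.05 and none an adjusted one, whereas within replicates 1 and 2 the unadjusted count was 2, within replicates 3 and 4 it was 0, and with library sizes alone as the scaling it was 1. No share of all genes stands beside these counts, so they are not results about the members.

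Genes of the other respiratory complexes lay at similar values. In Atf3-/-FS6KD all 40 nuclear subunits of complexes II to V had lower values, their median being -0.12 on the log2 scale with 0 adjusted calls, and 6 of them (15%) had an unadjusted p below 0.05, beside 4.69% of all genes. The iron-sulfur protein Uqcrfs1 and the cytochrome Cyc1 of complex III did not overlap between the groups, nor did Sdhb of complex II, 7.5% of the 40 beside 2.63% of all genes. Of 12 further complex I assembly factors, 10 were lower, with a median of -0.08 and 0 calls. Several lists of cell type markers also lay to one side. Of 9 cardiomyocyte markers, 8 were lower (median -0.15), their summed level running from 74353 to 88551 CPM in Atf3+/+FS6KD and from 63573 to 81781 CPM in Atf3-/-FS6KD. All 8 fibroblast markers were higher (median 0.39), their sum running from 1697 to 2039 CPM and from 2015 to 2748 CPM, with 0 of either list called. All 6 endothelial markers (median 0.11) and 5 of 6 mural markers (median 0.11) were higher, and all 5 erythrocyte markers were lower (median -0.20, sums of 273 to 470.2 CPM against 247 to 399 CPM), again with 0 called. None of these markers was near 0. In bulk tissue, fewer cells of a type and less RNA per cell cannot be told apart, and the part of tissue makeup in the members' values was not tested.

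The second comparison addressed knockdown of Atf3 in muscle from birth. Here 45 of 48 members were higher in the labelled shAtf3 hearts than in the labelled shCtrl hearts, again by little, and none passed the test. The median log2 fold change was 0.10, with quartiles at 0.04 and 0.13, beside -0.00 over all 15225 genes tested, of which 49.1% were higher. By edgeR's test 82 genes (0.539%) had an adjusted p below 0.05 and 0 members did, their smallest adjusted p being 0.206. The 82 became 38, 4 and 285 without labelled shCtrl replicates 1, 2 and 3, 3, 1 and 5 without labelled shAtf3 replicates 1, 2 and 3, and 20 with the replicate number as a block, with 0 members each time. DESeq2 called 308 genes and 0 members. At an unadjusted p below 0.05, 7 members (14.6%) were higher and 0 lower, beside 5.05% of all genes. With library sizes alone as the scaling this count was 3. In 14 members (29.2%) all labelled shAtf3 hearts lay above all labelled shCtrl hearts, beside 8.48% of all genes. With library sizes alone as the scaling, 38 members were higher and 10 lower, with a median of 0.06 where all genes had -0.04.

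Ndufs4, an N module subunit whose loss causes Leigh syndrome (chr13:114287795-114388094), had the smallest p-value. It stood at 270.1, 256 and 264 CPM in the labelled shCtrl and 299.6, 302 and 297 CPM in the labelled shAtf3 hearts (log2 fold change 0.19, SE 0.05, 95% interval 0.07 to 0.31, adjusted p = 0.206). The groups were clearly apart, with little spread within the labelled shAtf3 hearts. Ndufb10, a distal arm subunit, stood at 466, 471 and 476 CPM against 543, 516 and 543 CPM (log2 fold change 0.18, SE 0.05, 95% interval 0.06 to 0.30, adjusted p = 0.214). Ndufa12, the N module subunit that takes the place of the chaperone Ndufaf2, stood at 284, 263 and 292 CPM against 313, 326 and 314 CPM (log2 fold change 0.19, SE 0.06, 95% interval 0.05 to 0.32, adjusted p = 0.254). In both, too, the groups did not overlap.

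Ndufc2, a subunit of the proximal arm, stood at 163, 165 and 166 CPM against 194, 179 and 176 CPM (log2 fold change 0.15, SE 0.06, adjusted p = 0.329). Ndufv2, a core iron-sulfur subunit, stood at 575, 524 and 566 CPM against 614, 611 and 618 CPM (log2 fold change 0.15, SE 0.06, adjusted p = 0.337). Both were without overlap. Further core subunits had log2 fold changes of 0.13 for Ndufs8, 0.12 for Ndufs7, 0.11 for Ndufs1, 0.11 for Ndufs3 and 0.00 for Ndufv1. Ndufs1 was the most even of these, at 1019.9, 1017 and 1022 CPM against 1117, 1090.4 and 1095 CPM (log2 fold change 0.11, SE 0.05, adjusted p = 0.395), and its groups were apart, whereas Ndufv1 stood at 633, 664 and 728 against 719, 608 and 700.4 CPM and overlapped wholly.

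By submodule, all 9 N module subunits were higher (median 0.10), as were all 6 of the Q module (median 0.11), all 11 of the distal arm (median 0.09) and 8 of 9 of the proximal arm (median 0.08). The exception was Ndufa1, a small subunit of the proximal arm, at 185, 184 and 207 CPM against 202, 183 and 182 CPM (log2 fold change -0.02, SE 0.07, adjusted p = 0.936). Among the assembly factors 7 of 8 were higher, with a median of 0.15. Ndufaf5 stood at 29.7, 26.3 and 25.05 CPM against 31.02, 31.5 and 30.5 CPM (log2 fold change 0.20, SE 0.08, 95% interval 0.02 to 0.37, adjusted p = 0.34), without overlap, and Ndufaf3 at 34.9, 35.6 and 34.2 CPM against 41.1, 35.4 and 41.4 CPM (log2 fold change 0.17, SE 0.07, 95% interval 0.00 to 0.34, adjusted p = 0.383), with overlap. The largest fold change was that of Ndufaf6, 0.22, with hearts at 17.7, 15.4 and 16.1 CPM against 21.4, 19.3 and 16.7 CPM (adjusted p = 0.413). Ndufaf1 and Ndufaf4 stood at 0.19 and 0.12, and Ndufaf8 (-0.04) and Ndufa4l2 (-0.02) were the other 2 members on the lower side. Ndufaf2 had hearts at 22.5, 19.6 and 13.8 CPM in the labelled shAtf3 group, too wide a spread to give a direction (95% interval -0.33 to 0.40). Ndufa4 stood at 885, 869 and 942 CPM against 994, 919.6 and 966 CPM (log2 fold change 0.10, SE 0.06, adjusted p = 0.543).

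Of the 12 further complex I assembly factors, 11 were higher, with a median of 0.14, and 6 had an unadjusted p below 0.05, beside 5.05% of all genes. In 9 of the 12 all labelled shAtf3 hearts lay above the others, beside 8.48% of all genes, and 0 had an adjusted p below 0.05. Aifm1, which anchors an import factor needed for complex I, stood higher (log2 fold change 0.20, SE 0.06, adjusted p = 0.243), as did Timmdc1, a membrane arm assembly factor (0.18, SE 0.07, adjusted p = 0.306), and Foxred1, an oxidoreductase-like assembly factor (0.17, SE 0.06, adjusted p = 0.273). The 40 subunits of complexes II to V had a median of 0.09, with 37 higher and 0 called. Of these 40, 8 (20%) were higher at an unadjusted p below 0.05, beside 5.05% of all genes. In 14 (35%) all labelled shAtf3 hearts lay above all labelled shCtrl hearts, beside 8.48% of all genes, and in 1 all lay below. Cardiomyocyte and fibroblast markers lay here mostly on the other side than in the knockout, although Actc1 was higher and Mb lower in both. Of the 9 cardiomyocyte markers 8 were higher (median 0.09, sums of 71145 to 78945 CPM against 75810 to 81102 CPM). All 8 fibroblast markers were lower in the labelled shAtf3 hearts (median -0.67), 4 of them with an adjusted p below 0.05, with sums of 2341 to 3206 CPM against 1742 to 1827 CPM that did not overlap. All 6 macrophage markers were lower (median -0.19), after all 6 had been higher in the knockout (median 0.29). The 6 endothelial markers had medians of 0.02 here and 0.11 in the knockout, and none of either list was called. All 5 erythrocyte markers were higher (median 0.04, sums of 325 to 752 CPM against 288 to 654 CPM) and 4 of 6 mural markers lower (median -0.04), with 0 called. The 2 atrial markers tested were lower (median -0.70, sums of 264.6 to 788 CPM against 256 to 339 CPM) and were not called. Nearly all of the sum was Nppa, with means of 608 and 291 CPM beside 2.59 and 2.05 CPM for Myl4. The paper names NPPA as a heart failure marker, so the sum does not measure atrial tissue. Depth did not overlap between the groups either. The part of tissue makeup and of depth in the members' values was not tested. The library labelled shAtf3 replicate 1 was the highest, with 45 of 48 members above the gene's median over the experiment, against 23 and 38 in the other 2 and 8, 3 and 27 in the labelled shCtrl libraries. Without it the members' median was 0.07, 37 were higher and 3 had an unadjusted p below 0.05. Without the labelled shCtrl replicate 3 the latter count was 17, and without replicate 2 it was 2. Shares of all genes are not given for these counts, which only show how single libraries move them.

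**Figure D3:**
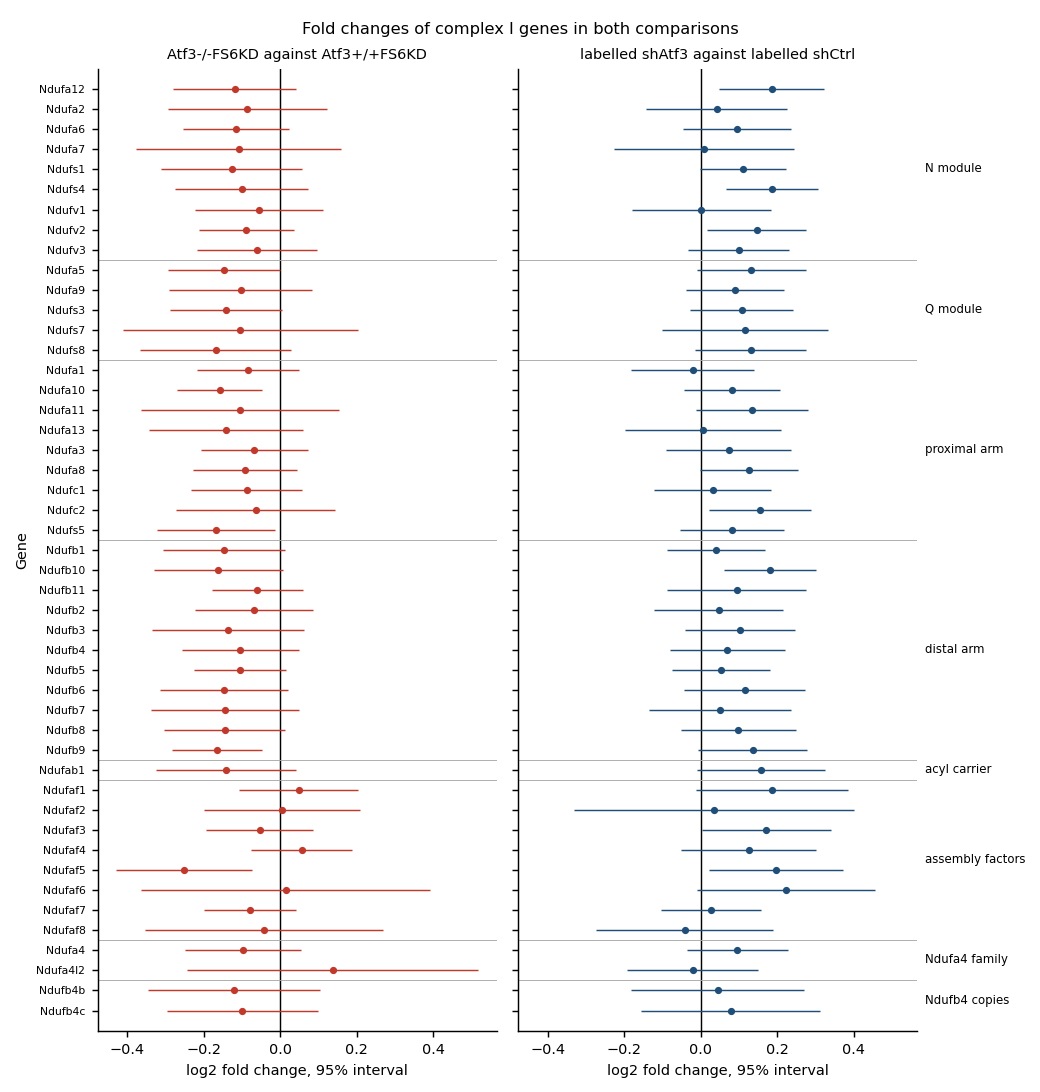
Points are log2 fold changes of 47 members and bars their 95% intervals, by submodule, for Atf3-/-FS6KD against Atf3+/+FS6KD (left, 4 against 4 hearts) and for labelled shAtf3 against labelled shCtrl (right, 3 against 3). Most points lie left of 0 in the knockout and right of 0 in the viral comparison, and most bars cross 0.

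The effects of both experiments were then compared in one model over all 14 libraries, as the knockout effect minus the effect between the viral labels. For 40 of 48 members (83.3%) the value was lower in the knockout and higher in the viral comparison, beside 31.4% of the 15109 genes tested in both. If the viral titles were exchanged, these same shares would be of genes lower in both. The difference was negative for 47 of 48 members, beside 49.9% of all 15708 genes tested, with a median of -0.20 on the log2 scale beside 0.00 over all genes. By edgeR's test 26 genes (0.166%) had an adjusted p below 0.05 and 0 members did. At an unadjusted p below 0.05, 19 members (39.6%) were negative and 0 positive, beside 7.53% of all genes. That count was 11 without the labelled shCtrl replicate 1 or the labelled shAtf3 replicate 1, and 3 with library sizes alone as the scaling, where the members' median was -0.09 and that of all genes 0.11. Shares of all genes at that threshold are not given for these settings. The 26 genes in all became 0 without the labelled shAtf3 replicate 2 and 168 without Atf3+/+FS6KD replicate 3, the ends of the range over single libraries left out. Among the members the smallest adjusted p-values belonged to Ndufaf5 (difference -0.45, SE 0.11, adjusted p = 0.0883) and Ndufb9 (difference -0.30, SE 0.08, adjusted p = 0.0935). DESeq2 called 6 members, Ndufa10, Ndufaf5, Ndufa12, Ndufb9, Ndufb10 and Ndufv2, among 669 genes. The experiments differ in how and when Atf3 was targeted and were counted in separate tables, so that experiment and treatment cannot be told apart. The difference also rests on the viral titles. With those titles exchanged, a setting chosen after the data were seen, the members' median was -0.02, with 28 negative, 20 positive and 0 at an unadjusted p below 0.05, and Ndufaf5 and Ndufb9 stood at -0.05 and -0.03. In that setting DESeq2 called 0 members and 3 genes. The subunits of complexes II to V had a median difference of -0.22 with the titles as deposited, all 40 negative, and of -0.02 with the titles exchanged, with 27 negative and 13 positive.

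Across members, the sizes of both effects were weakly related. Over the 48 members, Pearson's r between both log2 fold changes was -0.21 and Spearman's rho -0.22, a description over genes that share libraries and are not independent. Ndufb10, for example, had a mean of 476 ± 49.1 CPM in Atf3+/+FS6KD hearts and 425 ± 8.07 CPM in Atf3-/-FS6KD hearts, and of 471 ± 4.85 and 534 ± 15.9 CPM in the labelled shCtrl and labelled shAtf3 hearts (SD, n = 4 and n = 3). Within groups, the median coefficient of variation was 7.70% in Atf3+/+FS6KD, 5.59% in Atf3-/-FS6KD, 5.44% in the labelled shCtrl and 5.18% in the labelled shAtf3 hearts. It was highest for Ndufa4l2 in both knockout groups, at 20.2 and 19.1%.

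**Figure D4:**
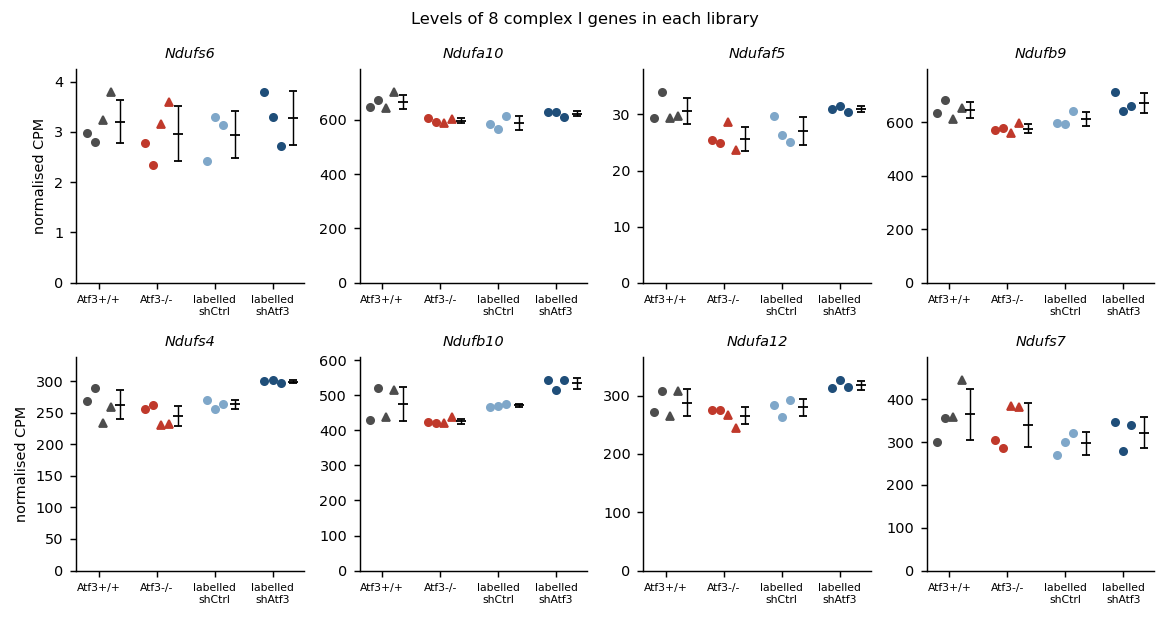
Normalised CPM of Ndufs6, Ndufa10, Ndufaf5, Ndufb9, Ndufs4, Ndufb10, Ndufa12 and Ndufs7 in each library on axes that start at 0. Circles are single libraries, triangles the deeper replicates 3 and 4 of the knockout experiment, and the bar beside them the mean ± SD. Differences between groups are small against the level of each gene, with Ndufs6 between 2.34 and 3.79 CPM throughout.

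The mean log2(CPM + 0.5) of the 36 structural subunits was 8.31 ± 0.08 in Atf3+/+FS6KD and 8.20 ± 0.03 in Atf3-/-FS6KD (SD, n = 4 each), and 8.21 ± 0.06 and 8.31 ± 0.06 in the labelled shCtrl and labelled shAtf3 hearts (SD, n = 3 each). In both experiments the groups overlapped. For complexes II to V the means were 9.55 ± 0.08 and 9.44 ± 0.01 in the knockout experiment and 9.45 ± 0.08 and 9.54 ± 0.06 in the viral experiment. The 4 Atf3-/-FS6KD hearts lay below all Atf3+/+FS6KD hearts there, but barely, with the highest at 9.455 and the lowest Atf3+/+FS6KD heart at 9.458. The assembly factors had means of 4.96 ± 0.03 and 4.92 ± 0.02, and of 4.97 ± 0.06 and 5.08 ± 0.08.

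**Figure D5:**
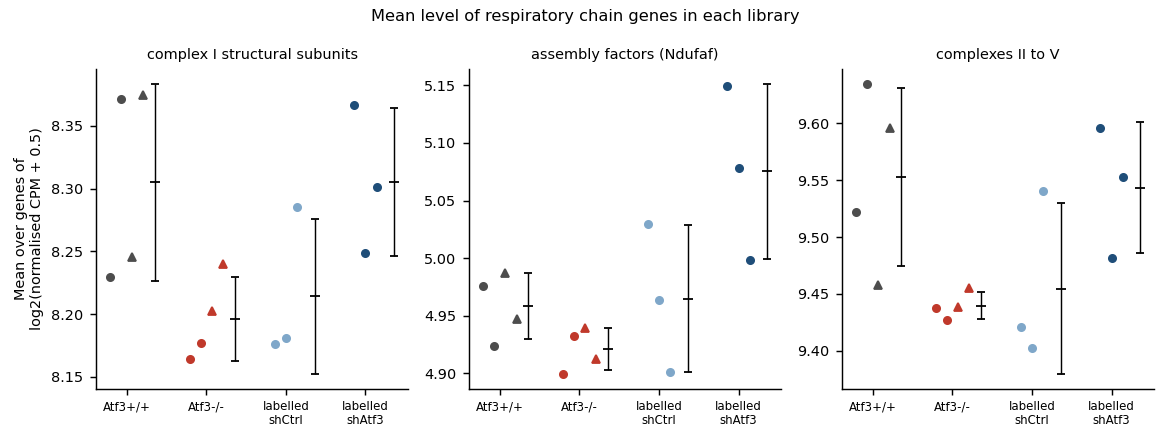
Mean log2(normalised CPM + 0.5) per library of the 36 structural subunits, the 8 Ndufaf assembly factors and the 40 nuclear subunits of complexes II to V, on axes that do not start at 0. Triangles are the deeper knockout libraries and the bar beside the points is the mean ± SD. Structural subunits of complex I stand at 8.16 to 8.24 in Atf3-/-FS6KD and 8.23 to 8.37 in Atf3+/+FS6KD, so the groups overlap.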

How the data were processed

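RNA of 14 female hearts was sequenced from TruSeq Stranded mRNA libraries. The authors counted reads per gene with featureCounts 2.0.0 on GRCm38.p6 and deposited 1 table of counts per experiment. The deposited values are estimated counts rather than whole reads. Of all values in a library, those of 0 included, 19.3 to 24.4% were not whole numbers, which arises when reads that fit several places are divided. The values were rounded to whole numbers, although the tests had been planned for plain counts. How the counting used strand is not given in the sources used here, so reads of overlapping and antisense genes may be mixed. Of the members, 37 were not whole in at least 1 library, and Ndufa7, Ndufaf5, Ndufaf6, Ndufaf7, Ndufb4, Ndufb4b, Ndufb4c and Ndufs3 were not whole in any, so part of their reads was divided. Beyond the copies of Ndufa7 and Ndufs3, the other places were not traced.

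Within a comparison, genes that exceeded 1 CPM in 1 or more libraries were normalised by TMM and tested with edgeR 4.0.16 (R 4.3.3; glmQLFit and glmQLFTest, two-sided, no covariates), with Benjamini-Hochberg adjustment over all genes tested and a threshold of 0.05. Each experiment was fitted on its own groups, and the difference between experiments on all 14 libraries. The authors tested each gene on normalised values without covariates, for which the count test stands in. Levels are TMM-normalised CPM. Levels per kilobase are CPM divided by the union of annotated exons in GENCODE M21 (GRCm38), which gave no length for Ndufb4b. Coordinates are RefSeq GRCm38.p6. Intervals are 95% intervals of the fit and cover the spread between the samples. Alternatives were library size scaling, DESeq2 1.42.0, limma-trend 3.58.1, other filters, copies added to their gene, a replicate block, depth as a term, each depth alone, leaving out each replicate and, chosen after seeing the data, exchange of the viral titles. Means over genes used log2(CPM + 0.5). All sample columns of both tables were used.

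Members, submodules, gene lists and motifs were chosen with earlier results of these data known, so no set test was run and counts stand beside those over all genes. Named with values were Ndufs6, core subunits, the 5 members of smallest p in each comparison, members against the direction of most, the extremes per kilobase, Ndufa4 and Ndufa4l2, and assembly factors with an unadjusted p below 0.05. One member enters the counts and medians but is not reported here singly. Ndufb5 and the examples from other lists and from the depth comparison were chosen after their values were seen. The pipeline was tested on simulated data, and with 15592 genes as in the knockout comparison it recovered 88 of 100 genes changed by 1 on the log2 scale and 99 of 100 changed by 2, with 11 false calls. With 15225 genes as in the viral comparison it recovered 96 and 100 of 100, with 21 false calls. Changes below 1 on the log2 scale, the size of all members' fold changes, were not simulated, so recovery at that size is not known. No pair of replicates agreed within sampling noise (chi-square per gene of 7.31 to 99.3), so each was counted as 1 replicate.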

Additional observations from a re-analysis of the deposited data

Results flagged for a closer look

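Among 56 sets of values examined (25 named members and 3 library means, in each of the 2 groups of 4 hearts), 4 held a heart far from the others of its group by Dixon's test at its 95% critical value. Chance flags about 1 in 20 groups. Ndufaf5 stood at 33.98 CPM in Atf3+/+FS6KD replicate 2, above the other 3 hearts at 29.3 to 29.7 CPM, and the lower level in Atf3-/-FS6KD does not rest on that heart, since all 4 knockout hearts (23.6 to 28.6 CPM) also lay below the other 3. Ndufb10 stood at 437 CPM in Atf3-/-FS6KD replicate 4, above 420 to 423 CPM in the others. Ndufa1 stood at 172 CPM in Atf3-/-FS6KD replicate 1, below 185 to 186 CPM in the others. Ndufaf3 stood at 36.5 CPM in Atf3-/-FS6KD replicate 3, above 33.6 to 33.9 CPM in the others.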

How the results depend on the processing

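No member was called by edgeR or limma-trend under any alternative run, and the members' medians in the knockout and viral comparisons kept their direction in each one run there. Exchange of the viral titles, run for the comparison of experiments, took its members' median from -0.20 to -0.02, and would turn every direction of the viral comparison. Library size scaling alone moved the knockout median from -0.10 to -0.042 and shifted the median difference of all genes in the comparison of experiments to 0.11. DESeq2 called 1 member in the knockout comparison and 6 in the comparison of experiments, among 208 and 669 genes in all, against 0 and 26 by edgeR. The count of members at an unadjusted p below 0.05 in the knockout comparison, 5, was 10 without Atf3+/+FS6KD replicate 1, 9 without its replicate 3, 3 without its replicate 2 or without Atf3-/-FS6KD replicate 1 or 3, 1 with library size scaling, 2 within replicates 1 and 2, and 0 within replicates 3 and 4. Since no share of all genes is given for these alternatives, the counts describe the settings and not the members.

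Several directions near 0 were not stable. Library size scaling moved the median of all genes as well, to 0.06 in the knockout and -0.04 in the viral comparison. Turns seen only under that scaling, as for Ndufaf3, cannot be told apart from this shift. In the knockout comparison the log2 fold change turned to 0.00608 for Ndufv1, 0.020 for Ndufaf8 and 0.0081 for Ndufaf3 with library size scaling, to -0.000266 for Ndufaf6 with depth as a term, to -0.14 for Ndufaf2 within replicates 1 and 2, and, within replicates 3 and 4, to 0.025 for Ndufv1, -0.062 for Ndufaf1, -0.16 for Ndufaf6 and 0.017 for Ndufa1. Leaving out single replicates there gave -0.094 to 0.10 for Ndufaf6, -0.055 to 0.043 for Ndufaf2, -0.12 to 0.045 for Ndufaf8 and -0.19 to 0.0040 for Ndufs7. In the viral comparison library size scaling gave -0.038 for Ndufv1 and -0.0058 for Ndufaf2, and leaving out single replicates gave -0.045 to 0.082 for Ndufv1, -0.068 to 0.037 for Ndufa4l2, -0.13 to 0.21 for Ndufaf2, -0.14 to 0.036 for Ndufaf8 and -0.070 to 0.037 for Ndufa1. The cause was not tested.

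Same-numbered hearts deviated together weakly or not at all. Correlations were 0.19, 0.09, 0.03 and 0.15 in the knockout and -0.04, 0.17 and 0.06 in the viral experiment. The same-numbered heart was the best match for Atf3+/+FS6KD replicates 1 and 2 and for labelled shCtrl replicate 2. So few pairs cannot decide whether the numbers pair the samples, and the main tests did not use them. With the replicate number as a block, 0 members were called in either comparison, the medians were -0.10 and 0.10, and 10 and 7 members had an unadjusted p below 0.05, counts without a share of all genes beside them. The few counts of Ndufs6, 80 to 502 per library, limit what could be seen for it.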
